A study of Mus musculus with 9 samples.

Results

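The genes described are 10 receptor subunits that bind interferons and cytokines of the IL-10, IL-4, IL-13 and common gamma chain families, which signal through JAK kinases: Ifnar1, Ifnar2, Ifngr1, Ifngr2, Il10rb, Il4ra, Il13ra1, Il13ra2, Il2rg and Il15ra. They were chosen by gene symbol with earlier results of these data known, and all 10 had a row among the 17156 genes of the table. The gene lists used below were chosen the same way. Counts of calls set beside the share of all genes are therefore descriptions. The filter on low counts kept 9 of them among 13613 genes tested, and Il2rg, the common gamma chain, was not kept. The cells were stellate cells of the mouse pancreas, which resemble fibroblasts and lay down matrix in injury and cancer. They are labelled wild type and of the strain C57BL/6J. All groups were cultured for 4 days. The control (MG-CM) was DMEM with 5% FBS. The second group (CM) received medium conditioned by pancreatic tumor organoids, and the third (CM-JAKi) received such medium with 500 nM AZD1480, an inhibitor of JAK kinases. The labels do not give the FBS content of CM apart from that of the control. Each group had 3 libraries, labelled biological replicates. Replicate 1 was the stellate line PSC4, and replicates 2 and 3 were PSC5-I and PSC5-II, both labelled as the line PSC5. The conditioned medium of each replicate number came from a source of its own, so line and medium source cannot be told apart. The question is which receptor subunits the conditioned medium changes and which of those changes are lost with the JAK inhibitor. No group received the inhibitor in control medium. Loss of such a change and an effect of the inhibitor apart from conditioned medium therefore cannot be told apart.

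Libraries held 25625806 to 32466018 counts. All 12 stellate and fibroblast markers were kept, with a summed level of 7837 to 11645 CPM (counts scaled to library size by TMM, in the usual units). The summed level of ductal markers was 29.7 to 49.6 CPM and of acinar markers 5.60 to 14.0. Mesothelial markers summed to 8.26 to 21.5 CPM with MG-CM, 3.02 to 71.7 with CM and 11.98 to 58.6 with CM-JAKi, most of the highest sum from Msln, and endothelial markers to 6.37 to 8.64, 3.35 to 4.97 and 9.05 to 16.6. Of 6 endothelial markers tested 2 fell in CM and 2 rose with the inhibitor, Emcn and Tek both times, beside 5.39% and 10.1% of all genes. The part of such cells in the members' values was not tested. Leukocyte markers summed to 25.8 to 39.9 CPM with MG-CM, 43.3 to 145 with CM and 20.5 to 38.2 with CM-JAKi, most of it from Cd14, while the defining leukocyte gene Ptprc had 0 or 1 count in every library.

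Interferon and cytokine receptors of this class have no kinase activity of their own. Their signalling chains hold a JAK kinase at the intracellular part, and ligand binding brings chains together so that the kinases phosphorylate the receptor and then STAT factors. Type I interferons bind IFNAR1 with IFNAR2, and interferon gamma binds IFNGR1 with IFNGR2. IL-10RB is the shared second chain for IL-10, IL-22 and type III interferons. IL-4R alpha pairs with IL-13R alpha 1 in non-immune cells, where the pair answers both IL-4 and IL-13 through STAT6, and with the common gamma chain in leukocytes. IL-13R alpha 2 binds IL-13 with high affinity, has a short intracellular part and is best known as a decoy. IL-15R alpha presents IL-15 to cells that carry the beta and common gamma chains.

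Promoters are shown for the 3 members called between groups in the main fit and for Ifnar2, to set their base composition and motifs side by side. Ifnar2 was called only with the replicate number as a block in the fit, so it is not an uncalled counterpart to them. RefSeq (build GRCm38.p6) had an entry for 9 of the 10 members, with 10 entries in all, and the 250 bases before the start are printed 5′ to 3′ on the gene's strand. Il4ra is at chr7:125552021-125552270 (plus strand), Il13ra1 at chrX:36111858-36112107 (plus), Il13ra2 at chrX:147429193-147429442 (minus) and Ifnar2 at chr16:91372533-91372782 (plus). Capitals mark every match to 1 of the motifs searched.
Il4ra: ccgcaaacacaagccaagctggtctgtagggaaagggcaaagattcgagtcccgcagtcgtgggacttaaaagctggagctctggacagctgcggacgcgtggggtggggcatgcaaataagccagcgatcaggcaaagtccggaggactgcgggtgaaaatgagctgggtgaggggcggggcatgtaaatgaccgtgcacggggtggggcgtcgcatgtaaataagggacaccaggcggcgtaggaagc
Il13ra1: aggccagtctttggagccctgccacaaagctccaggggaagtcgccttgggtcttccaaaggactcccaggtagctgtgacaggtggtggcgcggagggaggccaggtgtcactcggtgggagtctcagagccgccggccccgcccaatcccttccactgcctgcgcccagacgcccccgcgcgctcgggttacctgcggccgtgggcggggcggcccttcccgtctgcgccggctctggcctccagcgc
Il13ra2: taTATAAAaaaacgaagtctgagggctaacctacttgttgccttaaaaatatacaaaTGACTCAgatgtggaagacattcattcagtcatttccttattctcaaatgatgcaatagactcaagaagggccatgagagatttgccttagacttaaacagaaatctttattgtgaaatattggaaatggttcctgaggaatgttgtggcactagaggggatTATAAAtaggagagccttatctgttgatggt
Ifnar2: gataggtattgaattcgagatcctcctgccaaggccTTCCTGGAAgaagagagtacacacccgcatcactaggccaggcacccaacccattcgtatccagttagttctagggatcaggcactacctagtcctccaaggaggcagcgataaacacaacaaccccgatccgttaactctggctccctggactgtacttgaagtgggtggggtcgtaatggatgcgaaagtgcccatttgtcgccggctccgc
The Il4ra and Il13ra1 stretches held 59.6% and 70.8% G and C with 17 and 21 CG pairs, and the one of Ifnar2 held 54% with 11. That of Il13ra2 held 36% G and C and 1 CG pair. The medians over all promoters in the table were 52.4% and 6. Motifs were searched on both strands. They were TTCNNNGAA, bound by most STAT factors, TTC and GAA with any 4 bases between them, the spacing that STAT6 prefers, GAAA and GAAA with any 2 bases between them, found in interferon-stimulated genes, TGANTCA, bound by AP-1, and TATAAA. No matches listed below overlapped. TTCNNNGAA was found in Ifnar2 (TTCCTGGAA, 214 to 206 bases before the start), and the form with 4 bases between in Ifngr2 (TTCCCGGGAA, 91 to 82 bases before). TGANTCA was found in Il13ra2 (TGACTCA, 193 to 187 bases before) and in the second Il15ra entry (TGAGTCA, 30 to 24 bases before). Of the 9 members with an entry, Il13ra2 held TATAAA, at 248 to 243 and 31 to 26 bases before the start. The paired GAAA was found in 0 of the 9. The table held 32851 promoters of 27025 genes. Counted by gene, 8.13% held TTCNNNGAA in at least 1 entry and 6.76% the form with 4 bases between. The paired GAAA was held by 3.46%, TGANTCA by 7.82% and TATAAA by 14.3%. The letters searched for were not in the windows of Il4ra and Il13ra1.

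The receptor chains of IL-4 and IL-13 held all member calls between groups in the fit without the block. There Il4ra and Il13ra2 rose in CM, and Il4ra, Il13ra1 and Il13ra2 all fell when the inhibitor was present. In CM against MG-CM the change of Il15ra, at 1.34 on the log2 scale, was larger than those of Il4ra and Il13ra1. It did not pass without the block. With the replicate number as a block, Il13ra1, Il15ra, Ifnar1, Ifnar2 and Il10rb were also called higher in CM than in MG-CM. The block also called Il15ra lower in CM-JAKi than in CM. In CM-JAKi against MG-CM it also called Ifngr2 and Il10rb higher and Il13ra1 lower. The 4 interferon receptor chains and Il10rb differed by less than 0.5 on the log2 scale in every comparison. Below, CPM is given as mean ± SD (n = 3), log2 changes ± SE come from edgeR's quasi-likelihood test, and p is Benjamini-Hochberg adjusted over 13613 genes. Values of single libraries stand in the order of replicates 1, 2 and 3. A gene is called at an adjusted p under 0.05. The comparisons share libraries in pairs, CM being in the first and second, so their values are set side by side only. A fit with the replicate number as a block compares libraries of the same line, and its value is given where it changes the call. In cultures measured in bulk, a change in cells that express a gene and a change of RNA per cell cannot be told apart.

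**Figure D1:**
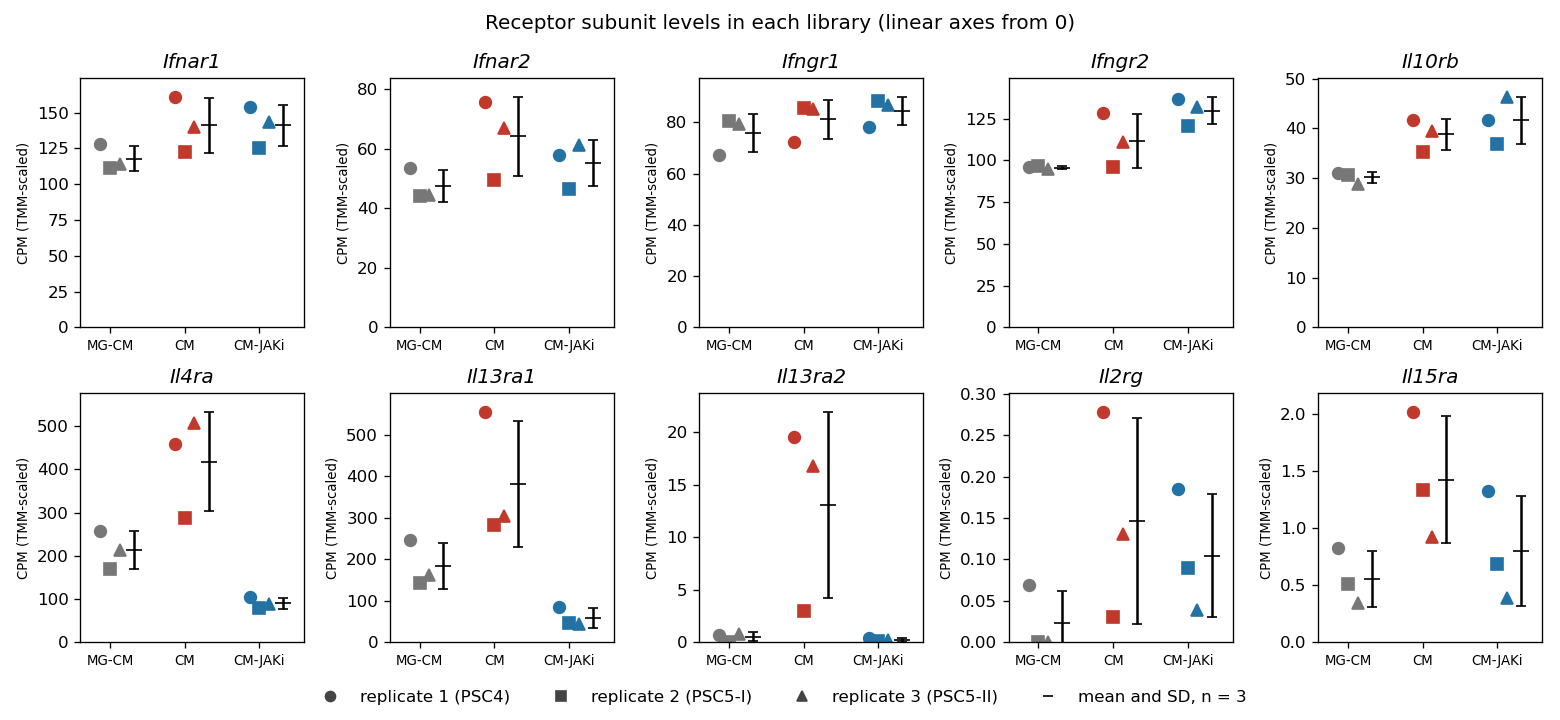
Level of each receptor subunit gene in CPM (linear axes starting at 0) in each library, by group. Symbols are the replicate numbers with their stellate lines, and bars are mean and SD (n = 3), which for Il2rg in MG-CM runs below 0. Il4ra and Il13ra1 are highest in CM and lowest in CM-JAKi without overlap, while the interferon receptor genes stay within a narrow range.

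In the comparison of CM with MG-CM, 2 of the 9 tested members rose and 0 fell, beside 10.2% of all genes called in either direction, 4.85% called higher and 5.39% called lower. With the replicate block 7 were called higher, beside 11.6% of all genes, and DESeq2 called 4 higher and 0 lower, beside 8.23% and 8.94%. The median log2 change of the members was 0.43, and of all genes 0.01. In 5 members the CM and MG-CM groups did not overlap, all higher in CM, beside 16% of all genes.

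Il4ra, the IL-4 binding chain common to both IL-4 receptor types, was at 258, 169 and 212 CPM with MG-CM, at 459, 288 and 507 with CM, and at 104, 78.4 and 88.5 with CM-JAKi. The 3 groups did not overlap, and replicate 2 was the lowest library of each. Group means were 213 ± 44.6, 418 ± 115 and 90.2 ± 12.8 CPM. In CM it rose by 0.97 ± 0.23 (adjusted p = 0.0328), and the ratio to MG-CM was 1.78, 1.70 and 2.38 in replicates 1, 2 and 3. Of the 9 fits that left out 1 library each, 3 kept this call. The adjusted p was 0.094 and 0.0822 without CM replicates 1 and 3, and 0.129 and 0.0862 when MG-CM replicate 2 or 3 was left out. It was 0.0505 and 0.0524 without CM-JAKi replicates 2 and 3, and 0.0645 with only the 2 groups compared. Of the 9 other settings tried, 8 kept the call.

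Il13ra1, the chain that completes the receptor for IL-13 beside IL-4R alpha, was at 246, 144 and 161 CPM with MG-CM, at 555, 284 and 304 with CM, and at 85.1, 47.1 and 43.8 with CM-JAKi. The groups did not overlap, and the PSC4 library was the highest of each. Group means were 183 ± 54.5, 381 ± 151 and 58.7 ± 23.0 CPM. The change in CM was 1.05 ± 0.35 and did not pass the test (adjusted p = 0.0904). With the replicate block it passed at 1.02 ± 0.08 (adjusted p = 0.00102), and DESeq2 gave an adjusted p of 0.0152. Within replicate numbers the ratio of CM to MG-CM was 2.26, 1.97 and 1.89.

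Il13ra2, the high-affinity IL-13 binder, had 20, 1 and 22 counts with MG-CM, 561, 97 and 510 with CM, and 13, 3 and 5 with CM-JAKi. All 3 CM libraries were above every other library, and PSC5-I (replicate 2) was the lowest in MG-CM, CM and CM-JAKi by count. Means were 0.518 ± 0.426, 13.1 ± 8.83 and 0.228 ± 0.158 CPM. It rose in CM by 4.66 ± 0.94 (adjusted p = 0.0215), and the ratio of summed counts scaled to depth was 25.3 (exact 95% interval 18.6 to 35.1, counting error only). By replicate the ratio was 28.4, 88.8 and 20.1, where the second rests on 1 count in MG-CM (interval 15.6 to 3544). The call was kept in 5 of 9 fits without 1 library. The adjusted p was 0.0533, 0.0696 and 0.0504 without MG-CM replicates 1, 2 and 3 and 0.0519 without CM replicate 1.

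The type I interferon receptor chains showed smaller differences. Ifnar1 was at 128, 111 and 114 CPM with MG-CM, at 161, 123 and 140 with CM, and at 154, 125 and 144 with CM-JAKi. Its CM and MG-CM ranges overlapped, although CM was the higher in 3 of 3 same-numbered pairs. The difference was 0.26 ± 0.12 (adjusted p = 0.199, or 0.0280 with the replicate block). Ifnar2, which also exists as a soluble form that gene counts do not separate, was at 53.7, 44.2 and 44.6 CPM with MG-CM, 75.7, 49.6 and 67.0 with CM, and 57.9, 46.3 and 61.2 with CM-JAKi. Replicate 2 in CM lay inside the MG-CM range. The difference was 0.43 ± 0.17 (adjusted p = 0.134, or 0.0250 with the replicate block).

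Of the chains for interferon gamma, Ifngr1, the ligand-binding one, ranged only from 67.2 to 88.4 CPM over the 9 libraries. It was at 75.8 ± 7.46 CPM in MG-CM and 81.1 ± 7.55 in CM, a difference of 0.10 ± 0.10 (95% interval -0.14 to 0.33, adjusted p = 0.588). Ifngr2, the signalling chain, was at 96.0, 96.4 and 94.6 CPM with MG-CM, at 129, 96.3 and 111 with CM, and at 137, 121 and 132 with CM-JAKi. In CM only replicates 1 and 3 stood above the control, and the difference was 0.23 ± 0.11 (adjusted p = 0.208). Il10rb was at 31.1, 30.6 and 28.8 CPM with MG-CM, 41.6, 35.3 and 39.4 with CM, and 41.8, 36.8 and 46.3 with CM-JAKi. All CM libraries lay above all MG-CM libraries, by 0.36 ± 0.10 (adjusted p = 0.0608, 0.0270 with the replicate block and 0.0212 with DESeq2).

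The common gamma chain and its IL-15 partner were near the lower end of detection. Il2rg had 2, 0 and 0 counts with MG-CM, 8, 1 and 4 with CM, and 6, 3 and 1 with CM-JAKi. The ratio of summed counts between CM and MG-CM was 6.04 with an interval of 1.37 to 55.2, on 13 and 2 counts. edgeR did not test it, and DESeq2, run on all genes, gave an adjusted p of 0.854 between CM-JAKi and CM and none elsewhere. Il2rg is a leukocyte gene. Of 15 leukocyte markers 12 had a row and 6 were tested. Ptprc, Laptm5, Itgam and Cd3e had at most 3 counts per library, while Cd68 had 39 to 67, Csf1r 34 to 63 and Coro1a 28 to 108. Cd14 was at 26.8 CPM in MG-CM and 64.6 in CM (adjusted p = 0.132, or 0.0164 with the block) and fell to 19.3 with the inhibitor (adjusted p = 0.0410). Cd53 rose from 1.28 to 13.01 CPM in CM (adjusted p = 0.0237) and fell to 1.24 CPM with the inhibitor (0.0141). The part of such cells in the Il2rg counts was not tested. Il15ra had 24, 15 and 9 counts with MG-CM, 58, 43 and 28 with CM, and 43, 23 and 10 with CM-JAKi. In CM it was higher within each number by 2.45, 2.63 and 2.69 times, and the change of 1.34 ± 0.52 passed with the replicate block (adjusted p = 0.132, or 0.00876 with the block).

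**Figure D2:**
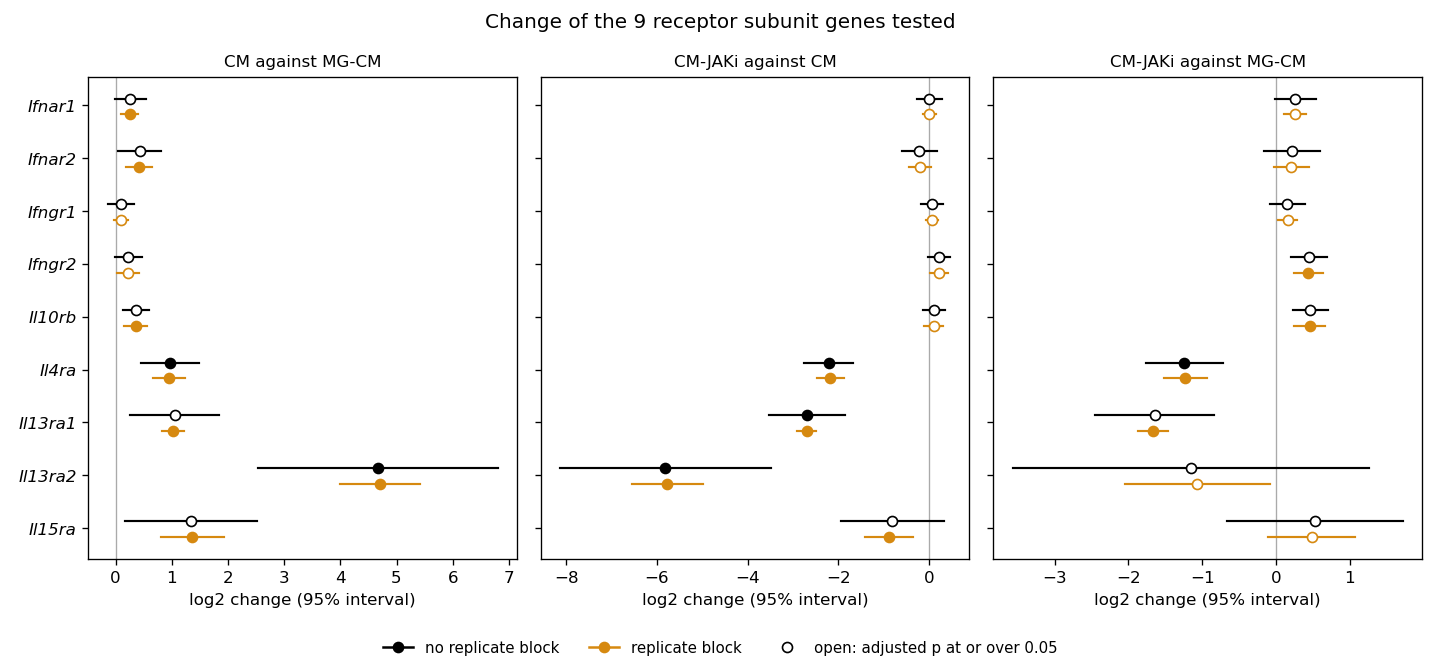
Log2 change with 95% interval for the 9 tested receptor subunit genes in the 3 comparisons, without (black) and with (orange) the replicate block. Filled circles have an adjusted p under 0.05. Intervals are narrower with the block, most of all for Il13ra1 and Il13ra2, and each panel has its own axis.

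Adding the inhibitor to CM lowered the chains of the IL-4 and IL-13 receptors. In the comparison of CM-JAKi with CM, 3 of 9 tested members fell and 0 rose, beside 19% of all genes called in either direction, 8.93% called lower and 10.1% called higher. With the replicate block 4 were lower, beside 15.6% of all genes. The median log2 change of the members was -0.22. In the 3 called members the groups did not overlap, beside 18.3% of all genes lower in that way. Il4ra fell by 2.21 ± 0.24 (adjusted p = 0.000918), and its level in CM-JAKi was 0.226, 0.272 and 0.175 times that in CM in replicates 1, 2 and 3. Il13ra1 fell by 2.70 ± 0.37 (adjusted p = 0.00281), to 0.153, 0.166 and 0.144 times the level in CM. Il13ra2 fell by 5.81 ± 1.02 (adjusted p = 0.00754), and the summed counts were 55.8 times higher in CM (interval 36.3 to 90.4). These 3 calls were made in all 9 fits without 1 library and in all 9 other settings tried. The fourth with the block was Il15ra, at 0.656, 0.517 and 0.421 times its CM level (-0.81 ± 0.50, adjusted p = 0.286, or 0.0232 with the block).

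The remaining 5 members did not pass the test in this comparison. Ifnar1 was at 141 ± 19.3 CPM in CM and 141 ± 14.6 in CM-JAKi, a difference of 0.00 with a 95% interval of -0.28 to 0.27. Ifnar2 gave -0.22 ± 0.17 and was lower in 3 of 3 pairs. Ifngr1, Ifngr2 and Il10rb gave 0.06 ± 0.10, 0.21 ± 0.11 and 0.10 ± 0.10, each higher in 3 of 3 pairs. Adjusted p was 0.192 to 0.995 over these 5. Their 95% intervals reached from -0.60 for Ifnar2 to 0.46 for Ifngr2.

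In the comparison of CM-JAKi with MG-CM, which asks how far cells with the inhibitor are from cells that never met conditioned medium, 1 of 9 members was called, beside 1.01% of all genes in either direction and 0.72% lower. Il4ra fell by 1.24 ± 0.23 (adjusted p = 0.0492), to 0.402, 0.463 and 0.416 times the control in replicates 1, 2 and 3. This call was near the threshold, and 1 of 9 fits without 1 library kept it, the one without CM replicate 2 (adjusted p = 0.0225). The adjusted p rose to 0.207 without CM-JAKi replicate 2, to 0.194 and 0.144 when replicate 3 of CM-JAKi or of MG-CM was left out, and to 0.136 when replicate 1 of MG-CM was. It was 0.064, 0.0635, 0.0558 and 0.0558 without CM-JAKi replicate 1, MG-CM replicate 2, CM replicate 1 and CM replicate 3. All 9 other settings tried kept the Il4ra call, at an adjusted p of 1.42e-05 (DESeq2) to 0.04999. Il13ra1 was at 0.347, 0.328 and 0.272 times the control. Its change of -1.64 ± 0.36 had an adjusted p of 0.0787, or 0.000446 with the replicate block and 9.8e-05 with DESeq2. It passed without CM replicate 1 (0.0437) and without CM-JAKi replicate 1 (0.0468).

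The replicate block called 4 members here, 2 higher and 2 lower, beside 1.85% and 2.4% of all genes (4.25% in either direction). DESeq2 called the same 4, beside 3.56% of all genes in either direction and 2.19% lower. The higher ones were Ifngr2 (0.44 ± 0.11, adjusted p = 0.118, or 0.0363 with the block) and Il10rb (0.46 ± 0.10, adjusted p = 0.0904, or 0.0371 with the block). In both, all CM-JAKi libraries were above all MG-CM libraries, beside 8.87% of all genes apart in that direction. DESeq2 gave them 0.0145 and 0.00759. Il4ra and Il13ra1 were apart in the other direction, beside 8.24% of all genes. For Il13ra2 the count ratio to MG-CM was 0.583 in replicate 1 (interval 0.267 to 1.23), 2.65 in replicate 2 (0.213 to 139, on 3 and 1 counts) and 0.232 in replicate 3 (0.0686 to 0.628). Over all replicates it was 0.453 (0.255 to 0.780, counting error only), and the fitted difference was -1.15 ± 1.06 (adjusted p = 0.815). Il15ra (0.52 ± 0.53), Ifnar1 (0.26 ± 0.12), Ifnar2 (0.22 ± 0.17) and Ifngr1 (0.16 ± 0.10) did not pass.

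Ifnar2, Il10rb, Ifnar1 and Ifngr2 are consecutive protein-coding genes on mouse chromosome 16 in the RefSeq order (GRCm38.p6). By edgeR without the block none of the 4 passed in any of the 3 comparisons. With it Ifnar1, Ifnar2 and Il10rb were higher in CM than in MG-CM, Ifngr2 and Il10rb were higher in CM-JAKi than in MG-CM, and 0 of the 4 were called between CM-JAKi and CM. Il10rb was therefore the one of the 4 called in both comparisons with MG-CM.

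Levels of different genes are compared per kilobase of exon, as CPM per kb, since longer transcripts give more counts. Exon lengths came from GENCODE M21 on GRCm38, a later build than the submitters name. In MG-CM the order was Il13ra1 (49.4 ± 14.7), Il4ra (40.6 ± 8.49), Ifngr1 (35.9 ± 3.53) and Ifnar1 (30.2 ± 2.26), each within its spread of the next. Ifngr2 (25.8 ± 0.259) followed, then Il10rb (16.3 ± 0.636) and Ifnar2 (14.96 ± 1.69), which were within their spread of each other. Il15ra (0.243 ± 0.107), Il13ra2 (0.227 ± 0.187) and Il2rg (0.0137 ± 0.0237) were far lower. In CM, Il13ra1 (103 ± 40.7) and Il4ra (79.5 ± 21.9) stood above Ifngr1 (38.4 ± 3.58), and Il13ra2 reached 5.73 ± 3.87. In CM-JAKi the order of the upper genes changed. Ifngr1 (40.0 ± 2.61), Ifnar1 (36.1 ± 3.73) and Ifngr2 (35.0 ± 2.22) came first, and Ifnar2 (17.4 ± 2.46), Il4ra (17.2 ± 2.44) and Il13ra1 (15.8 ± 6.19) were within their spread of each other.

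**Figure D3:**
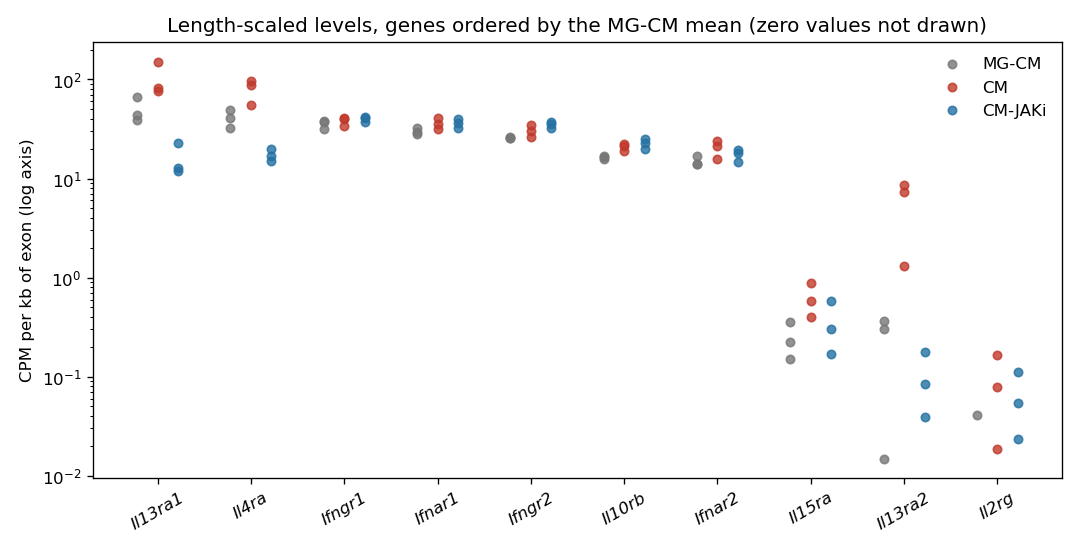
CPM per kb of exon on a log axis for each library and gene, with genes ordered by their mean in MG-CM and values of 0 not drawn. Il13ra1 and Il4ra lead in MG-CM and CM and lie among the middle genes in CM-JAKi, and Il13ra2 reaches 5.73 on average in CM only.

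Some members differed between the libraries of the 2 stellate lines. PSC4 is replicate number 1 alone, with 1 library per condition and its own medium source. Line, culture and medium source therefore cannot be told apart here. With a term for the line, PSC4 and PSC5 differed in 4 of 9 members, beside 21% of all genes called. This fit treats libraries of the same replicate number as independent of each other. All PSC4 libraries carry number 1, so its p does not measure the spread between PSC4 cultures. Il13ra1 was higher in PSC4 by 0.84 ± 0.07 (means 295 and 164 CPM, adjusted p = 0.000755), and all 9 fits without 1 library kept that call. Il15ra was higher by 1.01 ± 0.25 (adjusted p = 0.0258). That call was lost without MG-CM replicate 1 (0.0779), CM-JAKi replicate 1 (0.139), MG-CM replicate 3 (0.0541) and CM replicate 3 (0.0512). Ifngr1 was lower in PSC4 by 0.22 (-0.22 ± 0.05, adjusted p = 0.0157), and was lost without MG-CM replicate 1 (0.0629) and CM-JAKi replicate 1 (0.0562). Ifnar1 was higher in PSC4 by 0.22 ± 0.07 (adjusted p = 0.0496). For Ifnar1 1 of 9 fits without 1 library kept the call, the one without CM-JAKi replicate 3 (0.0439), and the others gave 0.0543 to 0.145. Il4ra passed without CM replicate 3 alone (0.0261, against 0.202 with all libraries).

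Whether the lines respond unlike each other was tested as the interaction of line and condition. Of the 9 members, 0 were called by edgeR for the CM effect and 0 for the inhibitor effect, with 0 at an unadjusted p under 0.05 and 0 by DESeq2. Over all genes 0.228% and 0.367% were called by edgeR and 3.35% and 2.67% by DESeq2. PSC4 has 1 library per condition, so intervals are wide, as the SE of 0.48 on the log2 scale for Il4ra in the CM effect shows. For Il13ra1 the difference in the CM effect was 0.23 ± 0.16.

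The kinases and STAT factors that these receptors use were largely lower with the inhibitor. Of 12 genes of the JAK, STAT and Irf9 list, 11 were tested. In CM against MG-CM 3 rose, namely Stat5a (0.63 ± 0.11, adjusted p = 0.0132), Stat2 (1.16 ± 0.24, 0.0231) and Irf9 (0.75 ± 0.18, 0.0349), and 6 were called with the block. Of all genes 4.85% were called higher there, and 11.6% with the block. The list's median log2 change was 0.61, against 0.01 for all genes. Between CM-JAKi and CM 8 fell and 0 rose, beside 8.93% and 10.1% of all genes. Irf9 (-2.81 ± 0.19, adjusted p = 0.00015), Stat2 (-2.75 ± 0.26, 0.000496) and Stat5a (-0.71 ± 0.11, 0.00423) were among the 8. In CM-JAKi against MG-CM 2 fell, Irf9 (-2.06 ± 0.19, 0.00234) and Stat2 (-1.59 ± 0.25, 0.0245), beside 0.72% of all genes. With the block 6 were lower, beside 2.4% of all genes. Among those 6 were Jak1 (-0.43 ± 0.09, adjusted p = 0.0728, or 0.0272 with the block) and Jak2 (-0.85 ± 0.28, 0.276, or 0.00864).

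Stat6, the factor that IL-4 and IL-13 receptors use, was at 93.0, 106 and 98.0 CPM with MG-CM, at 93.9, 99.5 and 93.7 with CM, and at 94.0, 109 and 110 with CM-JAKi. The groups overlapped and it passed in none of the comparisons, with log2 changes of -0.05 ± 0.09, 0.13 ± 0.09 and 0.08 ± 0.09. Tyk2, the kinase of IFNAR1, IL-10RB and IL-13R alpha 1, was also not called without the block. It was at 26.6 ± 2.16 CPM in MG-CM, 24.7 ± 2.82 in CM and 30.5 ± 2.43 in CM-JAKi, and the difference of 0.31 ± 0.11 between CM-JAKi and CM passed with the block (adjusted p = 0.0911, or 0.0316 with the block).

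Jak1, the kinase of IFNAR2, IFNGR1 and IL-4R alpha, was at 371 ± 28.6 CPM in MG-CM, 353 ± 3.64 in CM and 276 ± 16.5 in CM-JAKi. It fell by 0.35 ± 0.09 with the inhibitor (adjusted p = 0.0287). Jak2, the kinase of IFNGR2, was at 352, 201 and 257 CPM with MG-CM, 575, 305 and 354 with CM, and 177, 126 and 147 with CM-JAKi. Its CM values overlapped those of MG-CM (0.61 ± 0.27, adjusted p = 0.187, or 0.00744 with the block), and it fell by 1.45 ± 0.28 with the inhibitor (adjusted p = 0.0103). Jak3, the partner of the common gamma chain, went from 7.70 ± 2.54 to 13.7 ± 3.49 CPM in CM, a change that passed with the block (adjusted p = 0.0954, or 0.00278 with the block). It fell to 5.23 ± 1.32 with the inhibitor (-1.39 ± 0.29, adjusted p = 0.0133), and against MG-CM that level passed with the block (adjusted p = 0.552, or 0.0363). Stat3, the main factor of IL-10, differed by 0.24 ± 0.11 in CM (adjusted p = 0.184) and fell with the inhibitor by 0.51 ± 0.11 (adjusted p = 0.0147).

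**Figure D4:**
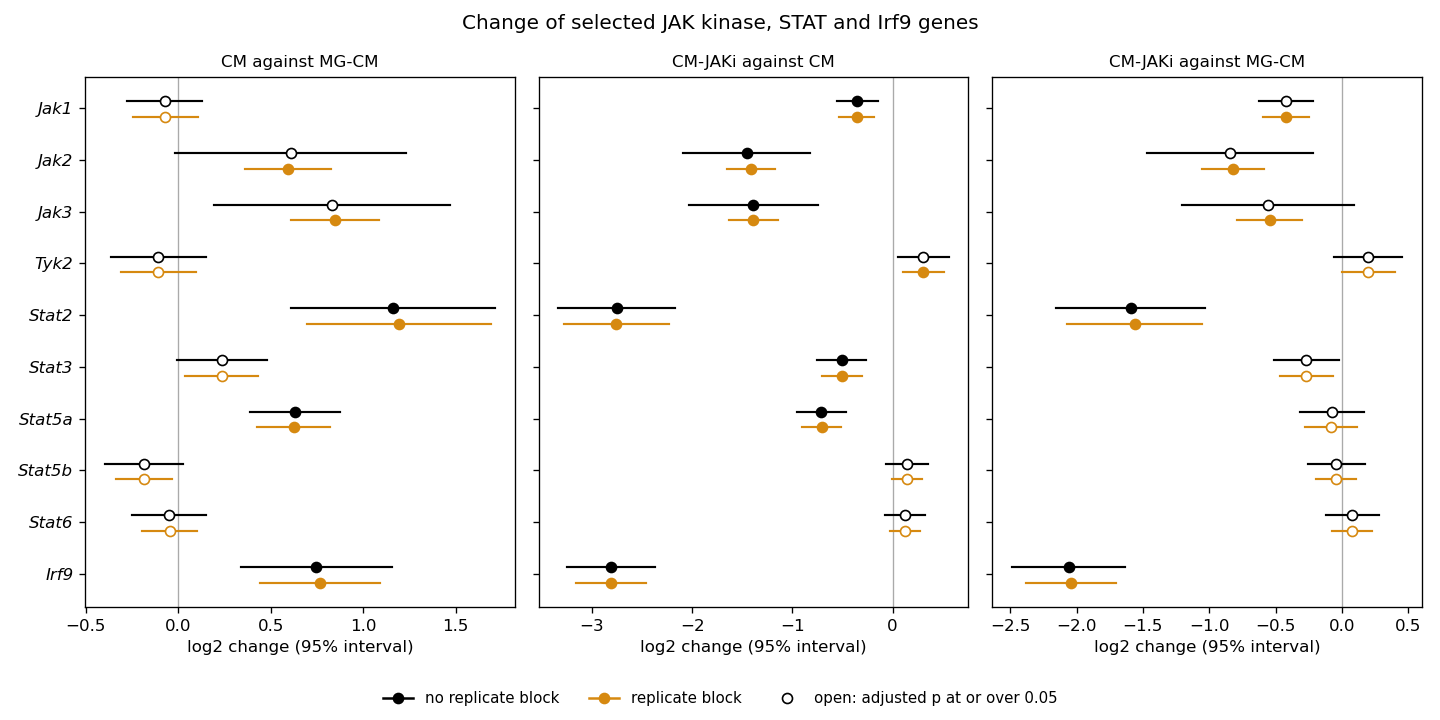
Log2 change with 95% interval of selected JAK kinase, STAT and Irf9 genes in the 3 comparisons, without (black) and with (orange) the replicate block, filled where the adjusted p is under 0.05. In the second panel Irf9 and Stat2 lie farthest below 0, and the intervals of Stat6 and Stat5b include 0.

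Ligand genes of these and related receptors that had a row were at low counts in the cells' own RNA. Tslp and Il24 in this list are not ligands of the 10 members. Of 21 ligand genes 10 had a row and 3 were tested, Il7, Il15 and Tslp, and 0 were called in any comparison without the block (adjusted p 0.139 to 0.997, with 1, 0 and 1 at an unadjusted p under 0.05 in the 3 comparisons). DESeq2, run on all genes of the list with a row, called 0, 2 and 1 of them, the 2 being genes that edgeR did not test. Of all genes DESeq2 called 17.2%, 23.8% and 3.56% in either direction. Il7 in CM-JAKi was at 1.39 ± 0.0921 CPM against 2.65 ± 0.529 in MG-CM (-0.93 ± 0.24, adjusted p = 0.139, or 0.0392 with the block). Il15, the ligand of IL-15R alpha, was at 0.996 ± 0.235, 1.37 ± 0.347 and 0.875 ± 0.106 CPM. Among genes the filter removed, and picked after their values were seen, Ifnb1 had 1, 0 and 2 counts with MG-CM, 8, 15 and 8 with CM, and 1, 0 and 0 with CM-JAKi, a ratio of summed counts of 9.61 in CM against MG-CM (interval 3.00 to 49.1). Ifna4 had 0, 0 and 0, then 8, 9 and 3, then 0, 0 and 0. With 3 counts put in place of the 0 of MG-CM, the summed level in CM was 6.20-fold higher. The exact lower 95% limit of the ratio was 4.59, counting error only. Ifna4 belongs to a family of near-identical genes and its counts are uncertain. Il21, which signals through the common gamma chain, had 3, 0 and 1 counts, then 25, 5 and 13, then 0, 0 and 0. It was 14.4-fold higher in CM than in CM-JAKi with 3 counts put in place of the 0 (lower 95% limit 11.2).

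Other receptor chains of the family were tested in 18 of 34 cases. In CM Il20rb, a chain of receptors for IL-20 and related cytokines, rose by 1.01 ± 0.23 (adjusted p = 0.0304) and Il11ra1, the IL-11 receptor, fell by 0.61 ± 0.14 (adjusted p = 0.0289). Il6ra was at 23.6 ± 2.62 CPM in MG-CM and 14.1 ± 4.31 in CM (adjusted p = 0.0522, or 0.0464 with the block), Osmr at 519 ± 53.1 and 672 ± 33.6 (0.113, or 0.049997 with the block) and Csf2ra at 1.48 ± 0.858 and 3.05 ± 0.884 (0.127, or 0.0466 with the block). Without the block 1 rose and 1 fell in CM, beside 4.85% and 5.39% of all genes. With the block 3 were higher and 2 lower in CM, beside 11.6% and 12.8% of all genes. With the inhibitor 2 rose and 3 fell, beside 10.1% and 8.93% of all genes. The chain shared by the IL-6 family, Il6st, fell by 0.59 ± 0.13 (adjusted p = 0.0181), Osmr, the oncostatin M receptor, by 1.02 ± 0.14 (0.00247) and Il2rb by 1.91 ± 0.56 (0.0449, at under 1 CPM). Il11ra1 rose by 1.18 ± 0.14 (0.00146) and Ghr, the growth hormone receptor, by 0.79 ± 0.23 (0.0474). Against MG-CM, CM-JAKi called 0 of 18 by edgeR, with 5 at an unadjusted p under 0.05. The block called 2 lower (2.4% of all genes) and DESeq2 called 3 (3.56% in either direction). The lowest p belonged to Il6st (-0.65 ± 0.13, adjusted p = 0.0659, or 0.0243 with the block), Osmr (-0.65 ± 0.14, 0.0718, or 0.0283), Il11ra1 (0.57 ± 0.14, 0.121), Prlr (-1.50 ± 0.54, 0.339) and Lifr (-0.62 ± 0.24, 0.390).

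Feedback and target genes of these receptors were counted the same way. Of 19 brakes on JAK signalling, 3 rose and 1 fell in CM (5 and 1 with the block), 5 fell and 0 rose with the inhibitor (6 and 2 with the block) and 4 were lower in CM-JAKi than in MG-CM. Of all genes 4.85% rose and 5.39% fell in CM (11.6% and 12.8% with the block). With the inhibitor 8.93% fell and 10.1% rose (15.6% and 18.6% with the block). In CM-JAKi against MG-CM 0.72% were lower (2.4% with the block and 2.19% with DESeq2). These shares stand beside the target genes below as well. Usp18, which blocks IFNAR2 signalling, rose by 1.78 ± 0.26 (adjusted p = 0.0099) and fell by 4.54 ± 0.29 (0.00015). Socs3 rose by 0.84 ± 0.17 (0.0226) and fell by 2.06 ± 0.18 (0.000349), and Ptpn2 rose by 0.54 ± 0.13 (0.0364) and fell by 0.53 ± 0.13 (0.0263). Socs2 fell in CM (-1.45 ± 0.19, 0.00791) and fell again with the inhibitor (-2.01 ± 0.20, 0.000647). Ptpn6 was at 1.24 ± 0.424 CPM in MG-CM and 2.42 ± 0.222 in CM (adjusted p = 0.110, or 0.0458 with the block). In CM-JAKi against MG-CM, Socs2 (-3.46 ± 0.21), Usp18 (-2.76 ± 0.28), Socs3 (-1.22 ± 0.18) and Cish (-1.12 ± 0.19, adjusted p = 0.0317) fell. Of 15 interferon target genes 10 rose in CM, 14 fell with the inhibitor and 5 were lower in CM-JAKi than in MG-CM (9 with the block and 11 with DESeq2). The list median was 1.21 and -2.80 in the first and second comparison. Oas1a, an antiviral enzyme with near copies, was at 15.9 ± 3.91, 88.5 ± 29.9 and 0.827 ± 0.355 CPM in the groups in order, and Irf7 at 51.2 ± 24.7, 204 ± 65.9 and 4.84 ± 0.502. Rsad2 and Isg15 rose in CM by 2.86 ± 0.37 and 1.87 ± 0.27, and Psmb8, an immunoproteasome subunit, by 0.98 ± 0.21 (adjusted p 0.00791 to 0.0242). Of genes known as targets of IL-4 and IL-13, 7 of 13 were tested and 0 were called in CM, with 3 at an unadjusted p under 0.05, 1 in each direction with the block and 1 by DESeq2. Mrc1 was at 0.385 ± 0.0722 CPM in MG-CM and 0.948 ± 0.266 in CM (adjusted p = 0.0668, or 0.0256 with the block) and at 0.467 ± 0.192 in CM-JAKi (0.0928 against CM, or 0.0343 with the block), and Postn at 655 ± 462 and 148 ± 123 (0.0895, or 0.00688 with the block). With the inhibitor Postn rose by 3.00 ± 0.73 (adjusted p = 0.0246) and Cish, also counted among the brakes, fell by 0.66 ± 0.19 (adjusted p = 0.0392).

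For each member called in at least 1 comparison, the 3 genes with the most similar pattern over the 9 libraries were found among 10164 genes, by root mean square difference of log2 CPM after each gene's own mean was removed. Il4ra was nearest to Socs3 (0.17), Steap1 (0.21) and Krt80 (0.30). Il13ra1 was nearest to Steap1 (0.27), Parp9 (0.28) and Dtx3l (0.29). For Il13ra2 the closest were Cd74 (0.96), Spp1 (1.11) and Rarres2 (1.13). The difference grows with the size of a change and with noise at low counts, so it cannot be compared between members. These are descriptions over the same libraries that gave the tests.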

How the data were processed

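The authors deposited gene counts for 9 libraries (ribosomal RNA-depleted, stranded kit, per the labels' protocols). They were taken to be expected counts, which the authors rounded to whole values without scaling the libraries to each other. The unit is inferred from the values and from RSEM 1.2.29 being named with STAR 2.5.1b, DESeq2, NCBIM37 and mm9 in the submitters' processing notes, without their roles. Totals were 25625806 to 32466018 counts per library. Expected counts divide reads between near-identical genes.

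The count model was edgeR 4.0.16 (R 4.3.3, limma 3.58.1). Genes were filtered with filterByExpr (minimum count 10, minimum total 15), scaled by TMM and fitted by robust quasi-likelihood with a term per group and no block over all 9 libraries. Calls were made at a Benjamini-Hochberg adjusted p under 0.05. Log2 CPM used a prior count of 2. DESeq2 1.42.0, library size alone, no filter, only the groups compared, a line term, a replicate block and leaving out each library were alternatives. The first is on the whole table. With library size alone the median of all genes moved to 0.10 in CM-JAKi against CM, and log2 changes under that scaling are relative to it. Scripts were tested on simulated counts. Low-count ratios have exact conditional 95% intervals that cover counting error only.

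Libraries of the same number come from the same stellate line, and their deviations from group means correlated at 0.29 to 0.68 over 9 pairs, against -0.54 to 0.28 over 18 other pairs. Deviations from a group mean sum to 0, which lowers the correlation of other pairs, and those include pairs between the 2 lines. Among PSC5 libraries alone, same-number pairs were at 0.291 to 0.457 and other pairs at 0.00871 to 0.279. Pairing beyond the line is therefore only weakly shown. The numbers were taken to pair the libraries. Replicates differed by more than sampling noise (chi-square per degree of freedom 16.1 or more). The members and gene lists were chosen with earlier results of these data known. Named are all members, per list up to 5 tested genes with the smallest p in a comparison, the JAK kinases with the main STAT factors, and the 3 genes nearest in pattern to each called member (mean log2 CPM at least 2, no predicted genes). Coordinates and sequences are from RefSeq GRCm38.p6, not from the submitters' build. Protein sequences were not used here, and 1 gene that the naming rule takes is not reported here.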

Additional observations from a re-analysis of the deposited data

How the results depend on the processing

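Called members in CM against MG-CM were 2 without the block, 7 with the replicate block, 6 with a line term, 4 with DESeq2, 1 with only the 2 groups compared and 0 to 2 without 1 library. In CM-JAKi against CM they were 3, with 4 under the block and 3 to 3 without 1 library. In CM-JAKi against MG-CM they were 1, with 4 under the block, 4 with a line term, 4 with DESeq2 and 0 to 1 without 1 library. PSC4 against PSC5 gave 4, and 1 to 4 without 1 library. Chosen after seeing the data, leaving out all libraries of number 1 with the replicate block gave 4, 5 and 4 in the 3 comparisons of groups, and leaving out number 2 gave 2 in the third. No share of all genes is given for a line term, only the 2 groups compared, a left-out number or most fits without 1 library. Member counts under those settings cannot be read against a background. Over all genes, CM against MG-CM had 1394 calls, and 3325 with the block, 2486 with DESeq2 and 131 without MG-CM replicate 2. CM-JAKi against CM had 2585, and 4655 with the block and 991 without CM-JAKi replicate 2. CM-JAKi against MG-CM had 137, and 579 with the block, 504 with DESeq2 and 32 without CM-JAKi replicate 2. The interactions of line with condition had 31 and 50, and 430 and 351 with DESeq2. The cause of these differences was not tested.

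Of the values of single members under an alternative, 644 kept their direction and side of the threshold, 35 lost a call, 35 gained one and 12 changed sign, all in differences that did not pass. Ifnar1 between CM-JAKi and CM changed from -0.00122 to 0.00207 with the block, 0.00203 with a line term, 0.0972 with library size alone, 0.0405 without number 1, and -0.0971 to 0.0979 without 1 library. Ifngr1 there ran from -0.0236 to 0.107 without 1 library. Il15ra between CM-JAKi and MG-CM ran from -0.0447 to 0.911. For the line difference, Ifngr1 in the CM effect gave -0.0741 with library size alone and -0.00184 with no filter, and Il13ra1 in the inhibitor effect gave 0.0456 and 0.0092. No paired analysis was possible for the line comparisons because each replicate number holds 1 line, and leaving out single libraries was not run for the interactions. The block changed no call of a member other than those given. Counts limit Il2rg, Il15ra and, outside CM, Il13ra2.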
